A study of Mus musculus with 29 samples.

Results

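The genes described here are 33 genes that mark B cells or carry signals from the B cell antigen receptor, read in whole blood of male mice. A listed gene counted as a member if its mean over the 29 libraries was at least 1. All 33 listed genes passed that limit, out of 50384 gene symbols in the table and 24310 that passed the same limit. The RNA came from blood taken 120 days after mice of the line labelled LJ had their upper body irradiated with 11.35 Gy or were sham irradiated. In the study's title and design the samples serve to look for blood markers of death from delayed lung injury. The Die group held 9 irradiated mice whose outcome label is death, the Live group 10 irradiated mice labelled as living, and the sham group 10 mice that were not irradiated and are also labelled Live. The labels give neither age nor any allele beyond the line name, and they do not say when the Die mice died. Each library is 1 blood sample, numbered separately in sham and in irradiated mice, and nothing in the labels says whether mice shared a cage or a bleed day. Globin and ribosomal RNA were removed from the total RNA before stranded libraries were made.

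A B cell is recognised by its antigen receptor, a membrane immunoglobulin that cannot signal alone. CD79A and CD79B, which sit beside it, carry the signalling tails. When antigen binds, the kinases LYN and BLK phosphorylate these tails, SYK docks on them and, through the adaptor BLNK, brings BTK to phospholipase C gamma 2, the product of Plcg2, whose products raise calcium and switch on gene transcription. Surface receptors such as CR2 strengthen the signal, while CD22, CD72, SIGLECG and BTLA dampen it. PAX5 and EBF1 hold the cell to the B lineage. B cells make up a large share of the leukocytes in mouse blood and are among the blood cells most sensitive to radiation.

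The values are normalised counts, that is, estimated read counts per gene that the authors scaled per library, and they do not correct for transcript length. With the smallest recurring value of a library taken as 1 read, depth was about 19.3 to 41.2 M reads. In 3 libraries, sham replicate 1, Die replicate 2 and Die replicate 14, 828, 754 and 506 of 11519 well expressed genes were listed at 0, against 13 to 220 in the other 26 libraries. The main counts and the changes of several named genes are given with and without these 3 libraries. The 7S RNAs, abundant small RNAs of the signal recognition particle, took 3.02 to 32.1% of the counts in Die mice (median 8.72%), 11.6 to 40.1% in Live mice (median 27.55%) and 2.73 to 26.3% in sham mice (median 18.3%).

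Cd79a, Cd79b, Ms4a1 and Pax5, which define B cells, had a value in every library; the list also holds 7 genes that myeloid cells express. Of the 33 genes, Vpreb3 alone was listed at 0 anywhere, in sham replicate 1. The other 32 had a value in all 29 libraries. A change of level in whole blood can come from fewer cells or from less RNA per cell, and these cannot be told apart here.

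The promoters of 28 of the 33 genes are in the RefSeq table for GRCm38.p6. The stretches below are the 250 bases before the RefSeq start of Btla, Cd72 and Plcg2, which had unadjusted p under 0.05 in irradiated against sham mice, and of Cd79a, which had it between Die and Live mice. They are written 5′ to 3′ on the gene's strand, with capitals for AGGAAG or its reverse complement CTTCCT, the core bound by ETS factors such as SPIB. Btla lies on the plus strand and the stretch is chr16:45224087-45224336. Cd72 lies on the minus strand at chr4:43454627-43454876. Plcg2 is on the plus strand at chr8:117498025-117498274 and Cd79a on the plus strand at chr7:24897247-24897496.
Btla: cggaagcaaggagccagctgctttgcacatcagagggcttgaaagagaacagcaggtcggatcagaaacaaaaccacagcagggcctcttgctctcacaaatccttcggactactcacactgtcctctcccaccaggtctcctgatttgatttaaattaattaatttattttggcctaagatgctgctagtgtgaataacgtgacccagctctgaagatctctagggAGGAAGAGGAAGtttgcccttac
Cd72: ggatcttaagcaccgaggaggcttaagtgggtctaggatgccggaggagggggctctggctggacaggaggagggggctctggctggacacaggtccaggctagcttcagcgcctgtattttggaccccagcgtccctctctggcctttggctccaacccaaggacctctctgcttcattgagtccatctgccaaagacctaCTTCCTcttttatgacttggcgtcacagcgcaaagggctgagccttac
Plcg2: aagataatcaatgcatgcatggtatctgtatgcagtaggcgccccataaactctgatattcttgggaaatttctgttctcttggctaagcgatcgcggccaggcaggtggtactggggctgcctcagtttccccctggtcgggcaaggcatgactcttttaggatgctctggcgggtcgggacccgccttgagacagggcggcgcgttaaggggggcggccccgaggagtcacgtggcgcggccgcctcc
Cd79a: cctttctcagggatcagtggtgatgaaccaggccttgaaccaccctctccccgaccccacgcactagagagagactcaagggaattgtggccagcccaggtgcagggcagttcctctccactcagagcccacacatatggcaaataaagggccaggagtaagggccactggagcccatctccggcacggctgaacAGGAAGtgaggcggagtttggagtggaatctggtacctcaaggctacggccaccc
The matches stand 23 and 17 bases before the start in Btla, 48 in Cd72 and 55 in Cd79a, and the Plcg2 stretch holds none. In GENCODE, Btla, Cd72 and Cd79a start inside the stretches shown.

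The ETS core was found on either strand in 12 of the 28 promoters (42.9%), against 32.3% of the promoters of 27025 genes. The octamer ATGCAAAT, read by the OCT factors that the coactivator POU2AF1 joins, was found in 2 of the 28, Blnk and Vpreb3 (7.14%), against 1.81% of all. The palindrome CCCNNGGG, a core of EBF1 sites, was found in Bank1, Cd22 and Spib (10.7%), against 13.4% of all. These letters are a description of the sequence and were not tied to any level. Only exact matches were counted, so a promoter without a match may still hold a site that departs from them.

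Per kilobase of exon, the 33 genes spanned more than an order of magnitude in mean normalised count over the 29 libraries. Cd79b, one of the receptor's signalling chains, was highest at 2460 per kilobase (mean over 29 libraries), beside Lyn at 2426, whose kinase is also used by monocytes, neutrophils and platelets. Btla (1126 per kilobase), Cd79a (1074) and Fcmr, the IgM Fc receptor (1062), followed. The transcription factor genes were spread over the order: Pou2af1 was at 483 per kilobase and Spib at 355, in the upper part, and Pax5 at 212 and Ebf1 at 153, in the lower. Bach2 (96.8) and Bcl11a (96.4) closed the order. The library ranges of Cd79b and Lyn overlapped, as did those of Btla, Cd79a and Fcmr. Differences between neighbours in this order were not tested.

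**Figure D1:**
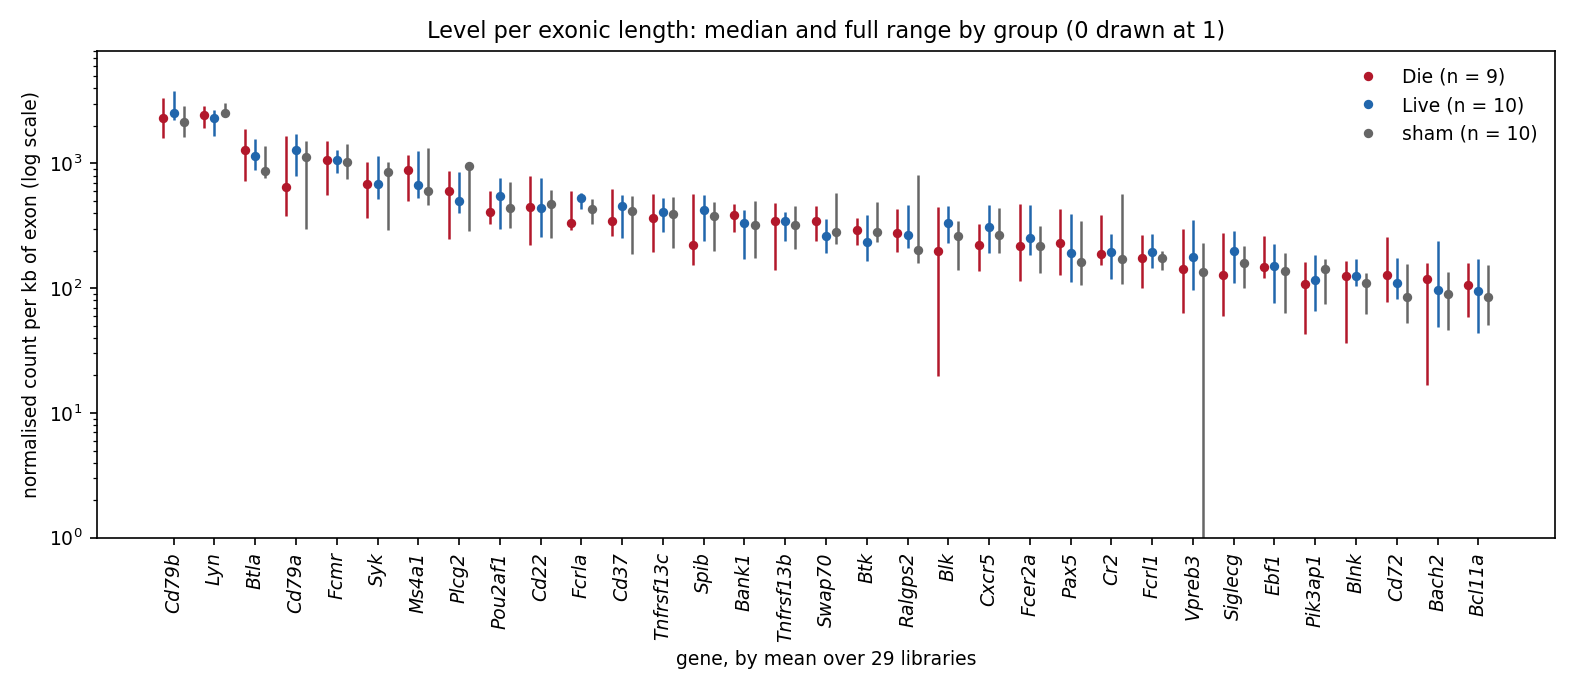
Normalised count per kilobase of exon on a log axis for the 33 genes, with points for the group medians of Die (n = 9), Live (n = 10) and sham (n = 10) libraries, lines from the lowest to the highest library, and genes ordered by their mean over all 29. Cd79b and Lyn have the highest means and Bach2 and Bcl11a the lowest, and the line of Vpreb3 in sham libraries reaches the bottom of the axis because 1 library is listed at 0.

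Irradiated mice were first compared with sham mice, with Die and Live mice given equal weight. None of the 33 genes passed an adjusted p of 0.05 in limma with Benjamini-Hochberg adjustment over all genes tested, where 0.0165% of all genes did. At an unadjusted p under 0.05, Btla and Cd72 were higher (2 of 33, against 3.45% of all genes) and Plcg2 was lower (1 of 33, against 3.95% of all genes). The log2 change was above 0 for 22 of the 33 genes (66.7%), against 52.2% of all genes, and its median was 0.06, against 0.02 over all genes. No gene of the 33 had irradiated and sham libraries that did not overlap, and 0% of all genes did in either direction. Without the 3 sparse libraries, 1 of 33 genes passed the adjusted test, Plcg2, against 0.255% of all genes. At an unadjusted p under 0.05, 5 of 33 were then higher, Cd79b, Cd72, Blnk, Ralgps2 and Btla (4.67% of all genes), and 2 lower, Plcg2 and Lyn (5.71% of all genes).

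Plcg2 (ENSMUSG00000034330.10, chr8:117498291-117635142, plus strand, GRCm38) encodes the phospholipase that turns receptor engagement into a calcium signal. Its normalised count was 1060.0, 2584 and 3755 (lowest, median, highest) in Die mice, 1726, 2163 and 3697 in Live mice and 1235, 4116 and 4316 in sham mice. All 19 irradiated libraries lay below the sham median, but the ranges overlapped, and the lowest sham value came from sham replicate 1, a sparse library. The log2 change of irradiated against sham mice was -0.52 ± 0.18 (SE; 95% interval -0.89 to -0.14; limma adjusted p = 0.447). Without the 3 sparse libraries the lowest sham value was 2745, 6 of 7 Die and 7 of 10 Live libraries lay below it, so that the ranges still overlapped, and Plcg2 passed, with a log2 change of -0.61 ± 0.13 (limma adjusted p = 0.0481). With library weights, which limma estimates from the scatter of each library, Plcg2 passed at -0.62 (limma adjusted p = 0.00643), where 1.98% of all genes passed. Over all alternatives the change lay between -0.68 and -0.44, with adjusted p between 0.00643 and 0.760.

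Btla (ENSMUSG00000052013.15, chr16:45224315-45257670, plus strand) encodes an inhibitory receptor of B cells that T cells and dendritic cells also carry. Its normalised count was 2462, 4336 and 6365 in Die mice, 2992, 3902 and 5294 in Live mice and 2593, 2962 and 4667 in sham mice. The ranges overlapped, with 7 of 9 Die and 10 of 10 Live libraries above the sham median. The log2 change was 0.38 ± 0.13 (SE; 95% interval 0.10 to 0.65; limma adjusted p = 0.442). The highest sham value again came from the sparse sham replicate 1. Without the 3 sparse libraries the highest sham value was 3519, 6 of 7 Die and 7 of 10 Live libraries lay above it, and the change was 0.45 ± 0.10 (limma adjusted p = 0.0617). With library weights it was 0.41 (limma adjusted p = 0.0268), and over all alternatives it lay between 0.26 and 0.45, with adjusted p between 0.0268 and 0.856.

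Cd72 (ENSMUSG00000028459.11, chr4:43446462-43454628, minus strand) encodes another inhibitory coreceptor of the B cell receptor. Its normalised count was 267, 435 and 887 in Die mice, 278, 379 and 599 in Live mice and 179, 289 and 531 in sham mice. Of the irradiated libraries 17 of 19 lay above the sham median and 2 below it, and the ranges overlapped. Cd72 had a log2 change of 0.42 ± 0.20 (SE, limma adjusted p = 0.645). Without the 3 sparse libraries it was 0.54 ± 0.18 (limma adjusted p = 0.233).

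Lyn, whose kinase both starts and restrains the receptor signal, had the fourth smallest p. It was at 7874, 9890.2 and 11820.2 in Die mice, 6812, 9408 and 10849 in Live mice and 9514, 10414 and 12394 in sham mice, and 15 of 19 irradiated libraries lay below the sham median. The log2 change was -0.18 ± 0.10 (limma adjusted p = 0.732).

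**Figure D2:**
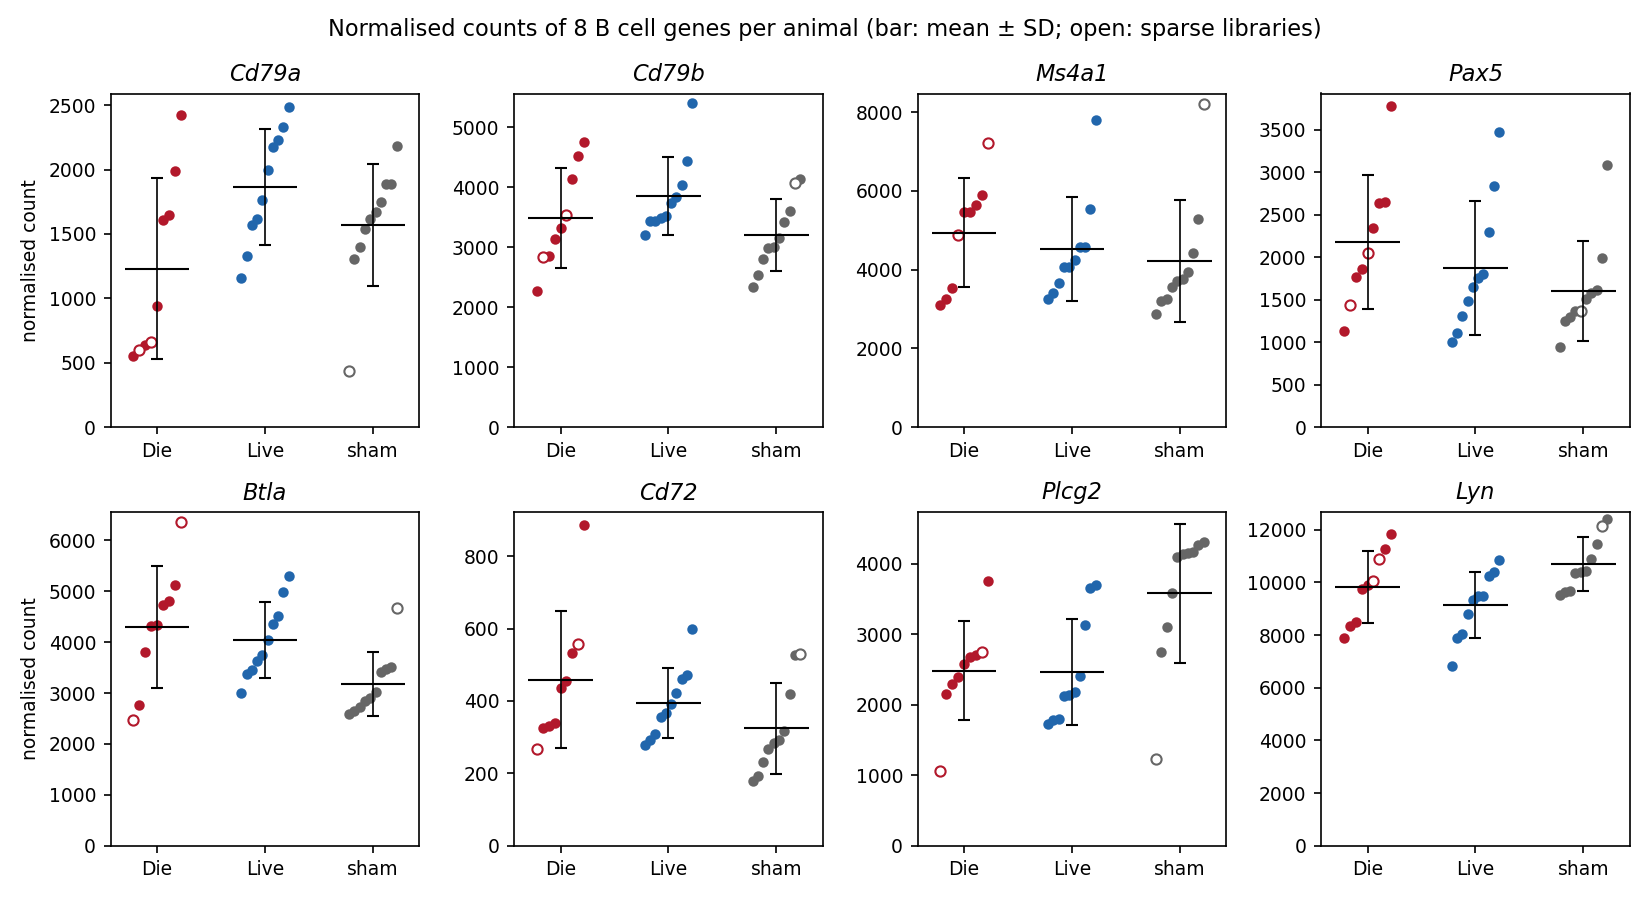
Normalised count per mouse for 8 of the genes in Die (n = 9), Live (n = 10) and sham (n = 10) blood, with the mean and SD as bars and the 3 sparse libraries as open points. All 19 irradiated libraries of Plcg2 lie below the sham median of 4116, while Cd79a in Die mice reaches down to 550.1.

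The signalling chains of the receptor, Cd79a and Cd79b, gave log2 changes on either side of 0. Cd79b was at 2269.9, 3319.5 and 4762 in Die mice, 3214, 3632 and 5410.1 in Live mice and 2343, 3080.4 and 4134 in sham mice. All 10 Live libraries lay above the sham median of Cd79b, as did 6 of 9 Die libraries. Its log2 change of irradiated against sham mice was 0.19 ± 0.12 (limma adjusted p = 0.807). Cd79a was at 550.1, 942 and 2428 in Die mice, 1158, 1879 and 2488 in Live mice and 434, 1644 and 2186 in sham mice, and its log2 change was -0.08 ± 0.23 (95% interval -0.55 to 0.40; limma adjusted p = 0.964). The range of Cd79a in Die mice was wider than that in Live mice, and the lowest value of all came from the sparse sham replicate 1.

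Ms4a1, the gene of CD20, was at 3100.5, 5457 and 7215 in Die mice, 3251, 4168 and 7801 in Live mice and 2883, 3743 and 8199.7 in sham mice. Its log2 change was 0.18 ± 0.16 (limma adjusted p = 0.863), and 13 of 19 irradiated libraries lay above the sham median. Pax5, the factor that fixes B cell identity, was at 1126, 2048 and 3783 in Die mice, 1001, 1701 and 3475 in Live mice and 944, 1438 and 3083 in sham mice. Its log2 change was 0.31 ± 0.19 (limma adjusted p = 0.787), with 15 of 19 irradiated libraries above the sham median. For neither gene did the difference pass the test, and the groups overlapped over most of their range.

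The 10 genes of proximal signalling were split, with 4 log2 changes above 0 and 6 below (median -0.08). Syk, the kinase that binds the phosphorylated tails, had medians of 6456 in Die, 6359 in Live and 8009 in sham mice. Btk, which activates phospholipase C gamma 2, had medians of 920.1 in Die, 735 in Live and 885 in sham mice. Blnk, the adaptor between SYK and BTK, had medians of 753 in Die, 752 in Live and 660.1 in sham mice, and Pik3ap1, which links the receptor complex to phosphoinositide 3-kinase, had 606 in Die, 646 in Live and 787 in sham mice. None of these 4 genes had an unadjusted p under 0.05. Bank1, a scaffold, had medians of 2903 in Die, 2499.8 in Live and 2398 in sham mice. Swap70, which binds phosphoinositides and acts in B cell migration, had 2796 in Die, 2136 in Live and 2286 in sham mice, and Ralgps2, an exchange factor, had 3353 in Die, 3254 in Live and 2464 in sham mice. For Ralgps2, 17 of 19 irradiated libraries lay above the sham median, while the sparse sham replicate 1 reached 9783, the highest value of that gene. Without the 3 sparse libraries the log2 change of Ralgps2 was 0.46 ± 0.14 (limma adjusted p = 0.161).

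Among the 11 coreceptor and surface receptor genes, 10 log2 changes were above 0 (median 0.06) and that of Cd22 was -0.01. Cd22, an inhibitory lectin, had medians of 2251 in Die, 2202 in Live and 2399 in sham mice. Cr2, the complement receptor that amplifies the signal, had medians of 1523 in Die, 1593 in Live and 1397 in sham mice, and Fcer2a, the low affinity IgE receptor CD23, had 670.3 in Die, 778 in Live and 676 in sham mice. Fcmr had medians of 1862 in Die, 1860.4 in Live and 1776 in sham mice, and the tetraspanin gene Cd37 had 1225 in Die, 1617 in Live and 1477 in sham mice. Fcrl1, of the Fc receptor-like family, had medians of 619.5 in Die, 695 in Live and 616 in sham mice. All of these ranges overlapped between groups.

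Of the 6 transcription factor genes, 5 log2 changes were above 0 (median 0.17). Ebf1, which acts with PAX5, had medians of 1453 in Die, 1464 in Live and 1345 in sham mice. Bach2, a repressor that holds off plasma cell formation, had medians of 1169 in Die, 957 in Live and 888 in sham mice, and Bcl11a, needed for early B cell development, had 1397 in Die, 1247 in Live and 1128 in sham mice. Of the 3 survival and homing receptors, 1 log2 change was above 0 and 2 below (median -0.02), and Cxcr5 is given with the comparison of Die and Live mice. Tnfrsf13c, the BAFF receptor on which mature B cells depend, had medians of 741 in Die, 837 in Live and 802 in sham mice. Tnfrsf13b, the receptor TACI, had 985 in Die, 987 in Live and 912 in sham mice. Vpreb3, which takes part in assembling the precursor receptor, was at 54.5, 123 and 254 in Die mice, 83.5, 153 and 303 in Live mice and 0, 116 and 199 in sham mice. Its log2 change of 0.96 ± 0.57 (limma adjusted p = 0.776) was 0.21 ± 0.23 without the 3 sparse libraries, 1 of which is the library listed at 0.

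**Figure D3:**
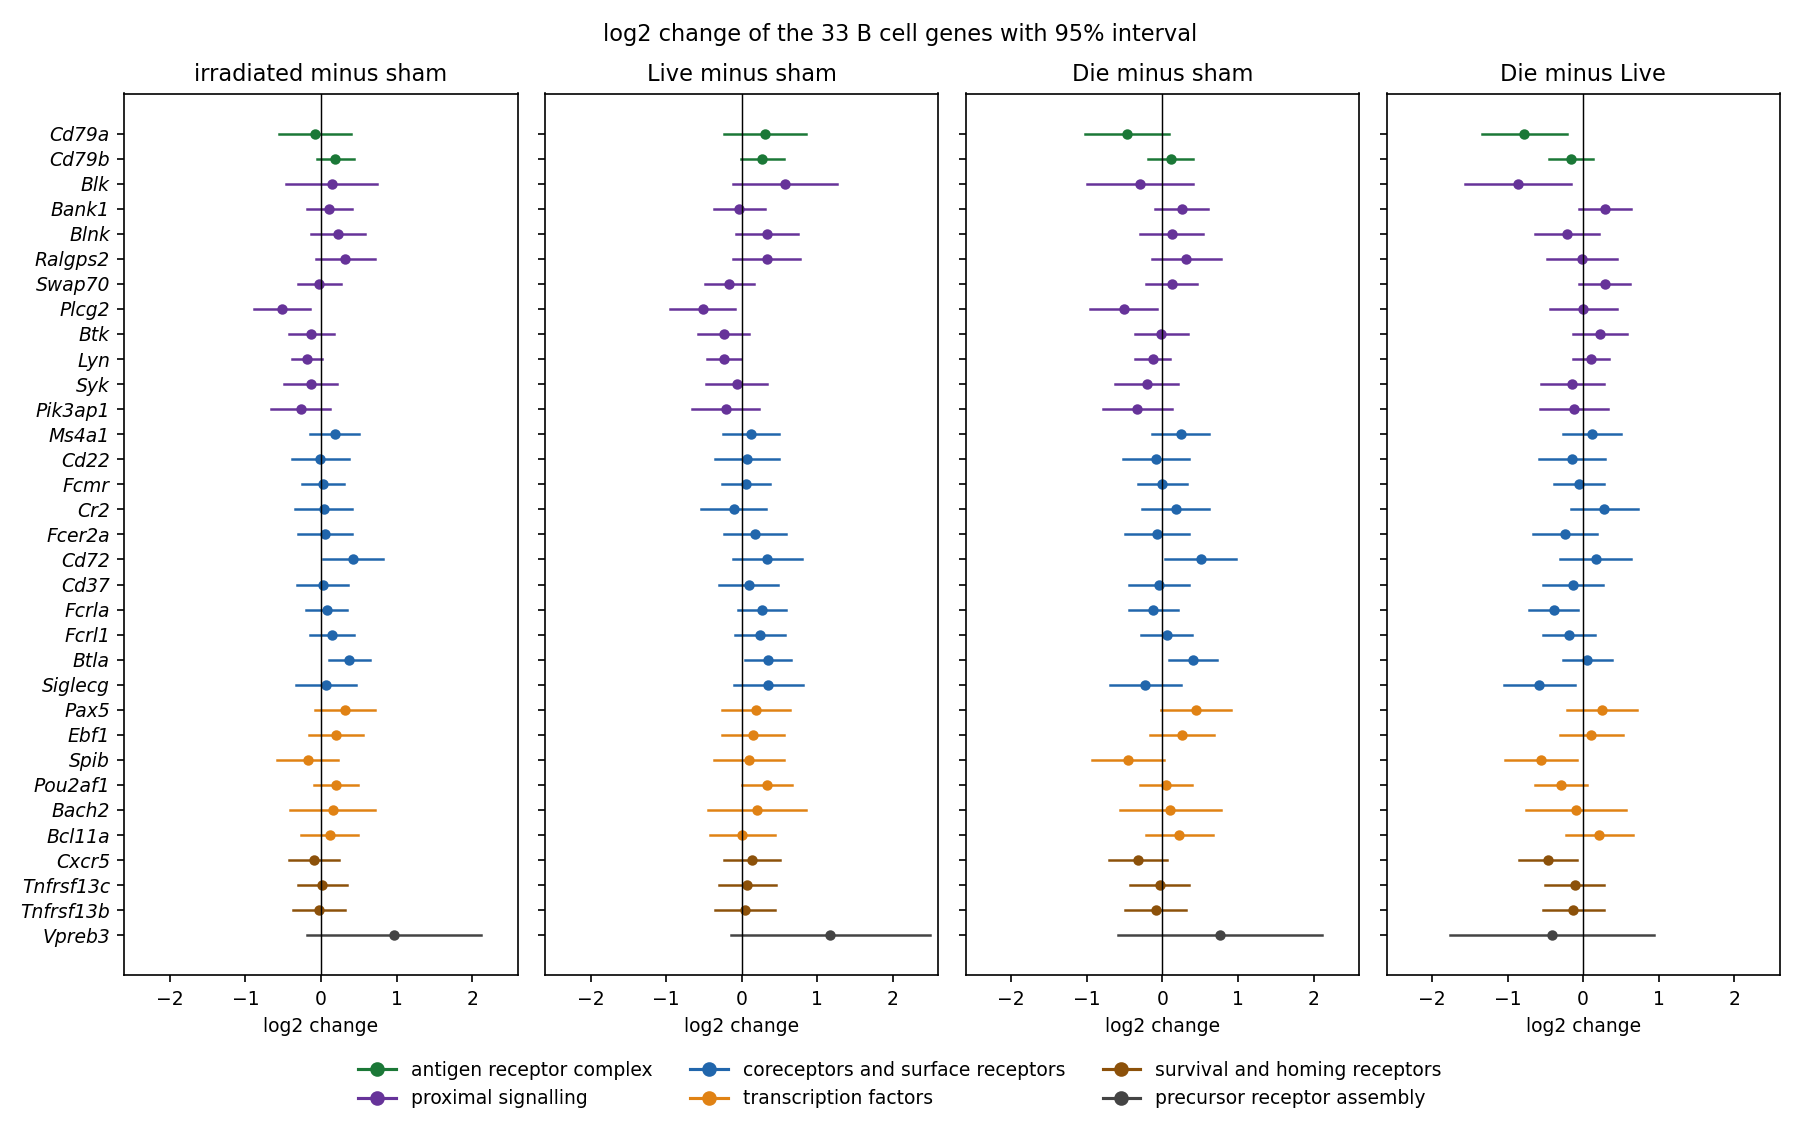
Log2 change with 95% interval of each of the 33 genes in the 4 comparisons, grouped and coloured by role. The interval of Plcg2 lies below 0 in all comparisons with sham mice, and that of Cd79a lies below 0 between Die and Live mice; no gene of the 33 passed the adjusted test with all 29 libraries.

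Live mice alone were set against the same sham mice. No gene of the 33 passed, where 0.0411% of all genes did. At an unadjusted p under 0.05, Pou2af1 and Btla were higher (2 of 33, against 3.76% of all genes) and Plcg2 and Lyn lower (2 of 33, against 3.93%). Log2 changes were above 0 for 25 of 33 genes (75.8%, against 52% of all genes), with a median of 0.14, against 0.005 over all genes. Live and sham libraries did not overlap for 0 of the 33 genes in either direction, against 0.00411% of all genes higher and 0.00411% lower. With the sparse libraries left out, 1 of 33 genes passed (0.473% of all genes), 7 were higher at an unadjusted p under 0.05 (5.3% of all genes) and 2 lower (6.34%). The 7 were Cd79b, Blk, Cd72, Blnk, Pou2af1, Ralgps2 and Btla. Both chains were above 0: Cd79a at 0.31 ± 0.27 (limma adjusted p = 0.862) and Cd79b at 0.27 ± 0.14 (limma adjusted p = 0.676). The Cd79a value was 0.11 without sham replicate 1 and turned to -0.21 with the 7S share as a covariate. Ms4a1 was at 0.12 ± 0.18 (limma adjusted p = 0.941) and Pax5 at 0.19 ± 0.22 (limma adjusted p = 0.917).

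Pou2af1, a coactivator of immunoglobulin transcription, was at 828, 1044 and 1543 in Die mice, 762, 1397 and 1932 in Live mice and 781, 1122 and 1798 in sham mice. In 9 of 10 Live libraries it lay above the sham median, and the log2 change of Live against sham mice was 0.34 ± 0.16 (limma adjusted p = 0.642). Plcg2 was at -0.52 ± 0.21 (limma adjusted p = 0.522), Btla at 0.35 ± 0.15 (limma adjusted p = 0.572) and Lyn at -0.23 ± 0.11 (limma adjusted p = 0.622). For Lyn, 7 of 10 Live libraries lay below the lowest sham library. Plcg2 was the gene that passed without the 3 sparse libraries, at -0.68 (limma adjusted p = 0.0393), and it passed with library weights, at -0.68 (limma adjusted p = 0.00844), where 2.95% of all genes did.

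Die mice were set against the same sham mice as well. No gene of the 33 passed, and 0% of all genes did; at an unadjusted p under 0.05, Cd72 and Btla were higher (2 of 33, against 4.13% of all genes) and Plcg2 lower (1 of 33, against 4.54%). Log2 changes were above 0 for 16 of 33 genes (48.5%, against 51.5% of all genes), and its median was -0.00061, against 0.015 over all genes. Die and sham libraries did not overlap for 0 of the 33 genes, against 0.00411% of all genes higher and 0.00411% lower. Over the 26 libraries that are not sparse, 3 of 33 were higher at an unadjusted p under 0.05, Cd72, Ralgps2 and Btla (4.08% of all genes), and Plcg2 was lower (4.33% of all genes). Btla was at 0.40 ± 0.16 (limma adjusted p = 0.526), Plcg2 at -0.51 ± 0.22 (0.526 likewise), Cd72 at 0.51 ± 0.23 (limma adjusted p = 0.548) and Spib at -0.46 ± 0.23 (limma adjusted p = 0.593). Cd79a was at -0.47 ± 0.27 (limma adjusted p = 0.645) and Cd79b at 0.11 ± 0.14 (limma adjusted p = 0.850). Pax5 was at 0.44 ± 0.23 (limma adjusted p = 0.596) and Ms4a1 at 0.24 ± 0.19 (limma adjusted p = 0.720). Both irradiated groups share the sham libraries, so the Live and Die values for one gene are not independent of each other.

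Die mice were compared with Live mice directly, the comparison that bears on outcome after the same dose. No gene of the 33 passed, and 0% of all genes did. At an unadjusted p under 0.05, 6 of 33 genes (18.2%) were lower in Die mice, against 5.32% of all genes, and 0 were higher, against 5.02% of all genes. The 6 genes were Cd79a, Blk, Spib, Cxcr5, Fcrla and Siglecg. With the sparse libraries left out, 2 of these were lower at that p, Cd79a and Fcrla, against 3.35% of all genes, and 0 were higher, against 5.12%. After scaling to an equal total without 7S, hemoglobin and mitochondrial genes, 1 of 33 was lower, Cd79a, against 3.74% of all genes, and 0 were higher, against 4.8%. In all, 12 of 33 log2 changes were above 0 (36.4%), against 50.3% of all genes, and the median was -0.12, against 0.0017 over all genes. That median was -0.034 without Die replicate 2, -0.068 without Live replicate 6, -0.20 without Die replicate 16 and -0.029 without the 3 sparse libraries. Die and Live libraries did not overlap for 0 of the 33 genes, against 0.00823% of all genes higher and 0% lower.

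Cd79a (ENSMUSG00000003379.7, chr7:24897381-24902197, plus strand) had the smallest p. With the values given above, 7 of 9 Die libraries lay below the Live median and 5 below the lowest Live library. The log2 change was -0.78 ± 0.27 (SE; 95% interval -1.33 to -0.22; unadjusted limma p = 0.00773; limma adjusted p = 0.371). Without the 3 sparse libraries it was -0.56 ± 0.24 (limma adjusted p = 0.546). Its partner Cd79b differed by -0.17 ± 0.14 (limma adjusted p = 0.691), Ms4a1 by 0.12 ± 0.19 (limma adjusted p = 0.851) and Pax5 by 0.25 ± 0.23 (limma adjusted p = 0.712). The ratio of the Cd79a to the Cd79b normalised count was 0.170, 0.356 and 0.510 in Die mice, 0.214, 0.523 and 0.634 in Live mice and 0.107, 0.515 and 0.729 in sham mice.

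Blk, the B cell kinase of the SRC family, was at 53.3, 539 and 1212 in Die mice, 617, 906 and 1218 in Live mice and 378, 709.9 and 932 in sham mice. Its log2 change of Die against Live mice was -0.86 ± 0.35 (limma adjusted p = 0.414), -0.46 without Die replicate 2, whose 53.3 was the lowest value, and -0.35 ± 0.22 without the 3 sparse libraries. Siglecg, an inhibitory lectin, was at 287, 608 and 1335 in Die mice, 533, 949 and 1382 in Live mice and 482, 770.4 and 1052 in sham mice, with a log2 change of -0.58 ± 0.23 (limma adjusted p = 0.410). Siglecg was at -0.52 ± 0.25 without the 3 sparse libraries. Both Blk and Siglecg had Die libraries below the lowest Live library, 5 for Blk and 4 for Siglecg.

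Fcrla, an Fc receptor-like protein kept inside the cell, was at 508, 585 and 1057 in Die mice, 750.1, 919.6 and 1015 in Live mice and 573, 753 and 902 in sham mice. Its log2 change was -0.39 ± 0.16 (limma adjusted p = 0.424), and 6 of 9 Die libraries lay below the lowest Live library. Spib, an ETS factor of B cells and plasmacytoid dendritic cells, was at 438, 641 and 1638 in Die mice, 688, 1224 and 1608 in Live mice and 573, 1080.3 and 1409 in sham mice, with a log2 change of -0.56 ± 0.23 (limma adjusted p = 0.425). Cxcr5, the receptor that guides B cells to follicles, was at 454, 739.7 and 1098 in Die mice, 634, 1026 and 1542 in Live mice and 636, 894 and 1464 in sham mice, with a log2 change of -0.46 ± 0.19 (limma adjusted p = 0.424). Without the 3 sparse libraries the changes were -0.31 ± 0.14 for Fcrla, -0.38 ± 0.23 for Spib and -0.32 ± 0.17 for Cxcr5. Spib and Cxcr5 fall outside the rule for full values and were added after their values were seen. In each of the 6 genes the highest Die library lay inside or above the Live range.

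The share of 7S RNA moved with several of these genes, and its median was 8.72% in Die mice and 27.55% in Live mice. In Die libraries with a 7S share under 10%, Cd79a was between 550.1 and 942 (5 libraries), while in those with 10% or more it was between 1612 and 2428 (4 libraries). The one sham library under 10%, sparse replicate 1, had 434, against 1308 to 2186 in the other 9, and all 10 Live libraries had a share of 10% or more. Spib showed the same order, with 438 to 641 in the 5 Die libraries under 10% and 786 to 1638 in the other 4. The same 2 sets of Die libraries did not overlap for Blk, Siglecg, Fcrla, Cxcr5 and Cd37. They overlapped for Cd79b, Ms4a1 (3100.5 to 7215 and 3265 to 5902) and Pax5 (1441 to 2646 and 1126 to 3783). Only the genes named here were split in this way, among them the 6 genes lower in Die mice. The share of all genes without overlap was not counted. In the sham library under 10%, Spib (573) and Cd37 (665) lay below the other 9. Cxcr5 (1464) lay above their range of 636 to 1069. Blk (475), Siglecg (753) and Fcrla (685) lay inside the range of the other 9. The 3 sparse libraries had the lowest 7S shares, 2.73%, 3.02% and 4.97%, and Die replicates 2 and 14 are among the 5 Die libraries under 10%.

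A fit with the group means and the 7S share gave the change of each gene per 10 percentage points of that share. Cd79a was higher by 0.55 ± 0.09 on the log2 scale (limma adjusted p = 0.000215), Spib by 0.44 ± 0.08 (limma adjusted p = 0.000932) and Cd37 by 0.31 ± 0.08 (limma adjusted p = 0.0096). These 3 of 33 genes (9.09%) rose with the share, against 6.25% of all genes, and 0 fell, against 2.15%. Without the 3 sparse libraries Cd79a (0.42 ± 0.09, limma adjusted p = 0.0140) and Spib (0.39 ± 0.09, limma adjusted p = 0.0199) passed, 2 of 33 (6.06%) against 1.78% of all genes. With the 7S share in the model, 0 of the 33 genes had an unadjusted limma p under 0.05 between Die and Live mice, where 3.29% of all genes were higher and 1.15% lower, so that 0 of 33 is near that background. Cd79a was at -0.05 ± 0.23 (limma adjusted p = 0.987). No Live library had a share under 10%; at 10% or more, the Cd79a ranges of the 4 Die libraries and the 10 Live libraries overlapped.

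**Figure D4:**
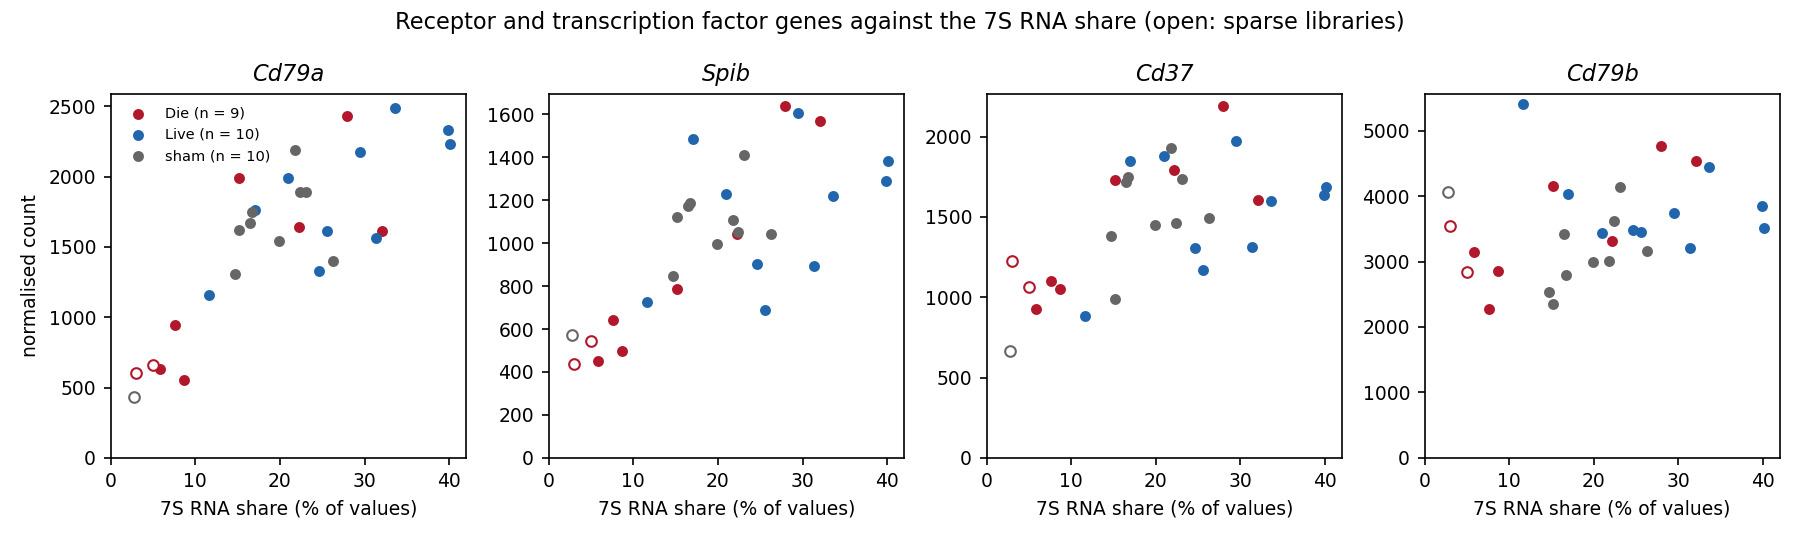
Normalised count against the share of 7S RNA per library for Cd79a, Spib, Cd37 and Cd79b, coloured by group, with sparse libraries as open points. The lowest Cd79a values, 434 to 942, come from the 5 Die libraries and the 1 sham library whose 7S share is under 10%.

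Across libraries the 33 genes did not vary as one block. After the group means were removed, the 528 gene pairs had a median Pearson r of 0.31 over the 26 libraries that are not sparse (0.24 over all 29), against a median r of 0.01 with 11486 other well expressed genes. Of the 528 pairs, 119 had r over 0.5 and 82 were below 0. These libraries share a scaling and a 7S share each, so the r values are given as a description. Plcg2 and Syk formed the closest pair at r = 0.94 (0.86 over all 29). Both are among the genes that myeloid cells also express, as is Pik3ap1, with r of 0.65 to Plcg2 and 0.71 to Syk. The source of these r values was not tested. Bank1 with Swap70 (0.83), Cd79b with Tnfrsf13c (0.82), Cd79a with Spib (0.82) and Cd79a with Cd37 (0.81) followed among the closest. Ralgps2, Lyn and Bach2 had the lowest median r with the rest, 0.01, 0.03 and 0.03, each with values of both signs. Lyn was closest to Cr2 (0.56) and Bach2 to Bcl11a (0.52). Cd79a and Cd79b, whose proteins form 1 dimer, had r = 0.46.

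**Figure D5:**
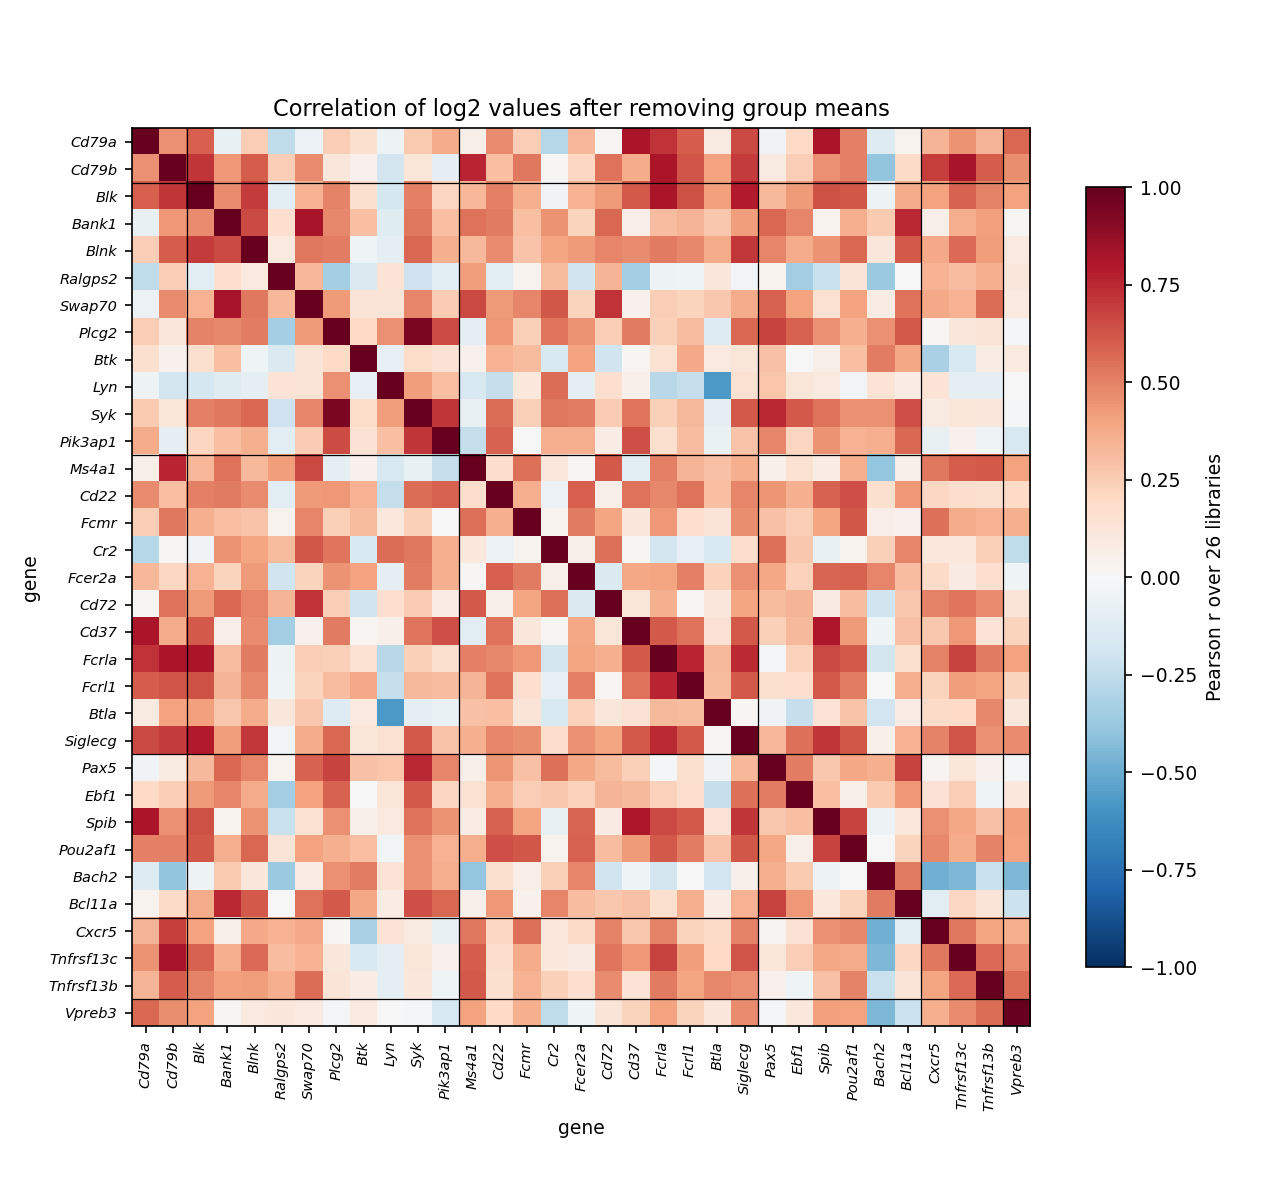
Pearson r of log2 values between the 33 genes over the 26 libraries that are not sparse, after removal of group means, with genes ordered by role. The strongest pair is Plcg2 with Syk at r = 0.94, and the rows of Lyn and Bach2 hold positive and negative values, with median r of 0.03 each.

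The median relative spread between mice was of similar size in the 3 groups, but single genes differed. The median coefficient of variation over the 33 genes was 30.9% in Die mice, 24.8% in Live mice and 26.2% in sham mice. Lyn varied least in Die and sham mice (13.9% and 9.59%), and Fcrla varied least in Live mice (9.95%). Blk varied most in Die mice (58.5%), Bach2 in Live mice (53.6%) and Ralgps2 in sham mice (74.9%). The values for Blk and Ralgps2 each include an extreme from a sparse library. Ralgps2 was at 9783 in sham replicate 1, against 1935 to 3497 in the other 9 sham libraries. Blk was at 53.3 in Die replicate 2, against a lowest value of 435 in Die libraries that are not sparse.

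The rest of the pathway was read from a list of 24 other genes of receptor signalling. None passed in irradiated against sham mice, and 6 log2 changes were above 0 and 18 below (median -0.09). At an unadjusted p under 0.05, 2 of the 24 were lower, against 3.95% of all genes, and 0 higher, against 3.45%. Nfkb1, the transcription factor subunit at the end of the pathway, was at -0.40 ± 0.13 (limma adjusted p = 0.408), and Ptpn6, the phosphatase used by the inhibitory coreceptors, at -0.39 ± 0.15 (limma adjusted p = 0.525). Vav2, an exchange factor, was at -0.42 ± 0.24 (limma adjusted p = 0.765). The values of these 24 genes are of whole blood, and the part of cells other than B cells in them was not tested. Of 25 other B cell markers, 17 were above 0 and 8 below (median 0.07). The 3 with an unadjusted p under 0.05 were all higher, where 3.45% of all genes were higher and 3.95% lower. They included Ighd, the heavy chain of IgD, at 0.33 ± 0.12 (limma adjusted p = 0.471), and H2-Ob at 0.31 ± 0.15 (limma adjusted p = 0.645). Between Die and Live mice 10 of these 25 markers were above 0 and 15 below (median -0.0054, against 0.0017 over all genes). At an unadjusted p under 0.05, 5 were lower in Die mice, against 5.32% of all genes, and 0 higher, against 5.02%. They included Cd74, the invariant chain of antigen presentation, at -0.48 ± 0.18 (limma adjusted p = 0.383). Ighm, the heavy chain of IgM, was at -0.43 ± 0.18 (limma adjusted p = 0.425). Both are named here for this comparison, whereas the rule names genes by p in irradiated against sham mice.

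Some of the 33 genes are also used by other blood cells. Of the 7 that myeloid cells express (Lyn, Syk, Btk, Plcg2, Pik3ap1, Cd37 and Swap70), 6 were below 0 in irradiated against sham mice (median -0.14), while the 33 together had a median of 0.06. Markers of classical monocytes were lower in the same comparison, with 12 of 12 log2 changes below 0. Of these, 11 had an unadjusted p under 0.05, against 3.95% of all genes lower. Mpeg1 passed the test at -1.06 ± 0.19 (limma adjusted p = 0.0167), where 0.0165% of all genes did. Their summed level was 60446 to 161726 in Die mice, 59578 to 167567 in Live mice and 91762 to 289027 in sham mice. The part of monocytes in the Plcg2 and Lyn values was not tested. T cell markers, of interest for Btla, were split, with 8 log2 changes above 0 and 7 below and a median of 0.00023. Platelet markers were below 0 in 8 of 8 genes between Die and Live mice. Of these, 5 had an unadjusted p under 0.05, against 5.32% of all genes lower. The part of platelets in the B cell values was not tested.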

How the data were processed

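RNA of whole blood from 29 mice, 9 Die, 10 Live and 10 sham, was read from 1 deposited table with 1 column per library. The deposited values are a signal, estimated counts per gene symbol that the authors scaled per library; they were never negative and not whole, and were not per length. Tools listed, without role or order, are kallisto 0.44.0, bcl2fastq 2.19, DESeq2 and sleuth, with GRCm38 as build, per the submitters' processing notes; the annotation is not given in the sources used here. Whole reads could not be recovered: 1.99 to 16.4% of values per library were within 0.01 of a multiple of the smallest recurring value.

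Genes with a mean of at least 1 were tested with limma 3.58.1 in R 4.3.3, with a mean-variance trend, on log2(value + 0.5), in 1 model of 3 group means; irradiated is the equally weighted mean of Live and Die. Adding 0.5 draws the changes of low genes toward 0, but a listed 0 can widen them. For Vpreb3 in irradiated against sham mice the log2 change was 0.96, and 0.21 without the 3 sparse libraries. Tests were two-sided, with Benjamini-Hochberg adjustment over 24310 genes and a threshold of 0.05, and the script was tested on simulated data. Levels per kilobase used exon lengths of GENCODE (GRCm38), and gene coordinates are from it. Promoters are from RefSeq, and motifs were searched on both strands. A library was called sparse where over 400 well expressed genes (mean of 50 or more) had a listed value of 0.

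The members and gene lists were chosen with earlier results of these data known. By rule, Cd79a, Cd79b, Ms4a1 and Pax5 were given in full in each comparison, with the 4 members of smallest p, and up to 3 genes of smallest p were named from each other list. The alternatives were other pseudocounts, filters and scalings, library weights, the 7S share as a covariate, leaving out libraries and the replicate block. The labels do not say whether mice shared cages or bleeds, so p-values measure the spread between these samples.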

Additional observations from a re-analysis of the deposited data

Results flagged for a closer look

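In 16 of 99 combinations of gene and group, 1 library stood apart from the others of its group by the gap to its neighbour. The limit used is met in about 1 in 20 cases by independent normal values. These values were unlogged and the genes vary together across the same libraries, so that rate is no expectation here. Of the 16, 9 came from sparse libraries, all from sham replicate 1. In that library Ms4a1 (8199.7), Cr2 (4606), Pou2af1 (1798), Cxcr5 (1464), Ralgps2 (9783), Btla (4667) and Swap70 (4689) were the highest sham values, while Cd79a (434) and Plcg2 (1235) were the lowest.

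Among irradiated libraries, Die replicate 16 stood apart with the highest Ebf1 (2569) and Fcer2a (1457) of its group, and Die replicate 3 with the highest Cd72 (887). In Live mice, replicate 6 had the highest Fcer2a (1429) and Bach2 (2381), and replicate 5 the highest Ms4a1 (7801). In sham mice, replicate 8 had the highest Pax5 (3083). All values are normalised counts, and none of these patterns was tested further.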

How the results depend on the processing

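The count of genes passing the test moved most. For irradiated against sham mice it was 4, and it was 10 with a minimum mean of 50, 0 after scaling to an equal total without 7S, hemoglobin and mitochondrial genes, 62 without the 3 sparse libraries, 481 with library weights and 21 with the 7S share as a covariate. For Live against sham mice it was 10, and it was 40, 0, 115 and 716 under the first 4 of these. For Die against sham mice it was 0, and 8 with library weights. The count of the 33 genes passing was 0 in each comparison; it was 1 without the sparse libraries and 2 with library weights for irradiated against sham mice, and 1 under either for Live against sham mice. Leaving out each library in turn gave 1 to 66 genes for irradiated against sham mice (66 without sham replicate 1), 5 to 50 for Live against sham (50 without sham replicate 10), 0 to 20 for Die against sham (20 without sham replicate 1), 0 to 1 for Die against Live, and 0 of the 33 throughout. Signs were followed through the alternatives only for the genes given in full in a comparison, with Spib and Cxcr5. Among these, the 7S share as a covariate turned the sign of Cd79a in Live against sham mice (-0.21). It also turned Ms4a1 (-0.076) and Spib (0.024) between Die and Live mice. Others of the 33 genes turned as well with that covariate. Between Die and Live mice they included Vpreb3 (-0.41 to 0.67) and Cd37 (to 0.27). In Live against sham mice they included Cd37 (to -0.20). The median change of the 33 genes between Die and Live mice, -0.12 against 0.0017 over all genes, was 0.0073 against 0.12 with that covariate and 0.04 against 0.04 with library weights. The cause of these shifts was not tested.

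Replicate numbers are shared by sham and irradiated mice, but they did not pair the samples: in 10 pairs with the same number, the r of the deviations was -0.19 to 0.04, and no library was closest to its own number. With the replicate block, 0 genes passed for irradiated and for Live against sham mice (20 and 12 libraries), the median of the 33 genes in Die against sham mice was -0.32 (8 libraries) and Cd79b there was -0.32. No block could be fitted for Die against Live, whose numbers are not shared. Read depth is known only approximately, and genes near 0 have the widest errors.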

Other observations

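B cells of other stages gave few differences at an unadjusted p under 0.05 in irradiated against sham mice, and none passed the adjusted test. Of 9 precursor genes measured, Cd93 was at -0.62 ± 0.18 (limma adjusted p = 0.287) and Dntt, the polymerase that adds bases at receptor gene joints, at -2.64 ± 0.97 (limma adjusted p = 0.466), while Il7r, a receptor that T cells share, was at 0.34 ± 0.16 (limma adjusted p = 0.647). Of 8 genes of innate-like B cells, 4 were above 0 and 4 below (median -0.009). Ahnak was at -0.84 ± 0.23 (limma adjusted p = 0.222) and Plac8 at -0.66 ± 0.24 (limma adjusted p = 0.441), and both are also expressed by other leukocytes. Of 7 germinal centre genes, 5 were above 0 and 2 below (median 0.21), and Bcl6, among those below, was at -0.41 ± 0.17 (limma adjusted p = 0.567). Of 10 plasma cell genes, 2 were above 0 and 8 below, with 0 at an unadjusted p under 0.05. Of all genes 3.45% were higher and 3.95% lower at that p. Tnfrsf17, the receptor BCMA of plasma cells, was at 1.46 ± 0.83 (limma adjusted p = 0.765). The ligand of the BAFF receptor, Tnfsf13b, was at -0.73 ± 0.76 (limma adjusted p = 0.887).

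Markers of other blood cells are given by their counts in the same comparison. Of 9 natural killer cell genes 5 were above 0 and 4 below, of 12 neutrophil genes 5 and 7, of 8 platelet genes 7 and 1, of 8 erythroid genes 5 and 3, of 6 plasmacytoid dendritic cell genes 2 and 4, and of 7 conventional dendritic cell genes 2 and 5. The lowest p among these came from Flt3, a growth factor receptor of dendritic cells, at -1.14 ± 0.28 (limma adjusted p = 0.169).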
